A study of Mus musculus with 18 samples.

Results

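The 41 genes of cell division and DNA replication described here were chosen by name for their known function, with earlier results of these data known. They were followed through normal and irradiated mouse lung. Of the 41 genes, 40 were named by at least 1 probe set that the platform annotation assigns to that gene alone, out of 18193 genes so named on the array. Ccnb1, which encodes cyclin B1, was named alone by no probe set of the annotation used and has no value here. The 40 genes held 95 probe sets. A filter on dim signals kept 50 of these, which left 30 member genes among 12405 genes tested. The other 10 (Ccne2, Tyms, Melk, Aurkb, Bub1, Bub1b, Ttk, Cenpe, Kif11 and Kif20a) stayed below the filter and are given from a fit without it.

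Lung RNA came from the inbred strains A/J, C57BL6/J (the labels' spelling of C57BL/6J) and C3H/HeJ, with 3 arrays from untreated and 3 from irradiated mice of each strain. Irradiated mice had received 18 Gy of gamma rays over the whole chest at 8 weeks of age, with lead cutting the beam to 3% over the rest of the body, and their right lungs were taken once they were moribund, a state that included a weight loss above 20%. That point came at 30 to 32 weeks of age in A/J, 28 to 30 in C57BL6/J and 20 to 22 in C3H/HeJ, or 22 to 24, 20 to 22 and 12 to 14 weeks after exposure, while untreated mice of every strain were 15 to 26 weeks old. The labels name no engineered allele in any group. Irradiation, time since exposure and moribund state cannot be told apart in any strain, nor can age in A/J and C57BL6/J. The comparison asks whether genes that dividing cells need differ between lungs at that late stage and untreated lungs, and whether the strains differ in this.

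A cell that is about to divide passes from a growth phase into DNA synthesis and then into mitosis. E2F transcription factors switch on the genes of DNA synthesis, among them the MCM helicase that opens the double helix, and FOXM1 together with the DREAM and MuvB complexes governs the later genes that build the spindle, check chromosome attachment and cut the daughter cells apart. In the resting adult lung few cells divide, so the RNA of these genes is usually low, and it is widely read as a sign of cycling cells such as repairing epithelium, endothelium, fibroblasts or immune cells. In RNA from whole lung, fewer cells of a type and less RNA per cell cannot be told apart.

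Levels below are quantile-normalized log2(signal + 7) values, an effect is the log2 fold change of irradiated against untreated arrays of 1 strain with its standard error, and a gene is called when limma's adjusted p over all 12405 genes is below 0.05. The level of 1 gene is not compared with that of another. Brightness differed between arrays, with a trimmed mean signal of 46.8 to 176.9. Lung epithelial markers were above the table's median in at least 11 of 12 cases on every array. C3H/HeJ irradiated array 3 lay at 0.447 on a scale from A/J (0) to C3H/HeJ (1) over 51 strain-marker probe sets, where the other irradiated C3H/HeJ arrays lay at 0.928 and 0.958, so C3H/HeJ results are also given without it. The 5' to 3' actin ratio, a sign of RNA integrity, was 0.413, 0.551 and 0.528 in irradiated A/J arrays against 0.73 to 0.742 in their controls. Squamous and skeletal muscle genes were high in C57BL6/J control arrays 1 and 3 and in A/J irradiated array 3.

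The promoters of many members carry sequence words that the cell cycle regulators above are known to read, and 6 are shown. The stretches end at the last base before the RefSeq transcription start in build GRCm38.p6 and run 5' to 3' along the gene. The CHR word TTTGAA is bound by MuvB complexes and the CCAAT word by NF-Y, and both are in capitals, on either strand, in the first 4. These 4 were taken from called members holding both words, by the number of strains called and then by the C3H/HeJ effect. Cdk1 and Cdc20 also hold both words and were called in C3H/HeJ, but ranked lower.
Ccnb2 (chr9:70421555-70421804, minus strand): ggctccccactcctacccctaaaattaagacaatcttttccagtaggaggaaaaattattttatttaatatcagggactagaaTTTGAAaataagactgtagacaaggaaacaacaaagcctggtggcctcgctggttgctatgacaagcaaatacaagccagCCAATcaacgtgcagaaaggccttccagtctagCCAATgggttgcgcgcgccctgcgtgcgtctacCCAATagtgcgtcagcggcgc
Mki67 (chr7:135716380-135716629, minus strand): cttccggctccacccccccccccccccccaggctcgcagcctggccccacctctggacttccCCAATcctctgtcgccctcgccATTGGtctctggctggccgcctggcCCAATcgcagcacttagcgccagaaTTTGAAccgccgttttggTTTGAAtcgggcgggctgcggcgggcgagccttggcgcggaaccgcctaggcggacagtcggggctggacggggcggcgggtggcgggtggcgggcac
Top2a (chr11:99024190-99024439, minus strand): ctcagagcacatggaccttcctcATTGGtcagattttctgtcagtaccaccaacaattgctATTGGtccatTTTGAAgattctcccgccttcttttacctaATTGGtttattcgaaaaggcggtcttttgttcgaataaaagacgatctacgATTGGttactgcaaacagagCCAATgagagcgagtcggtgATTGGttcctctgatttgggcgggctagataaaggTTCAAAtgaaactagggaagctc
Prc1 (chr7:80294326-80294475, plus strand): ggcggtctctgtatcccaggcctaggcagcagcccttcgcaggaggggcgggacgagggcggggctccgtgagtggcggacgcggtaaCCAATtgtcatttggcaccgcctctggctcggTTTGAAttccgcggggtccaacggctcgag
In the 2 MCM promoters with the most matches, capitals mark the E2F words searched (the word TTGGCGC, the word TTCCCGC, the word TTGCCGC and the word TTCGCGC, either strand), some of which overlap each other.
Mcm6 (chr1:128359706-128359855, minus strand): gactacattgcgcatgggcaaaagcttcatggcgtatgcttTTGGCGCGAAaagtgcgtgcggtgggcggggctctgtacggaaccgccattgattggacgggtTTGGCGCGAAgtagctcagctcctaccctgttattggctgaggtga
Mcm5 (chr8:75109259-75109508, plus strand): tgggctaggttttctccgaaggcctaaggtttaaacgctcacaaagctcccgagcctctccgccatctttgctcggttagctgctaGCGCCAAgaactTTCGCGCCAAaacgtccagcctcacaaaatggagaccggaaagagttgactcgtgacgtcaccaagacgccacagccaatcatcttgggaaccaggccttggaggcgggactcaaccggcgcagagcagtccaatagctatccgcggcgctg

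Ccnb2 held 1 CHR word and 3 CCAAT words, Mki67 held 2 and 3, Top2a 2 and 6, and Prc1 1 and 1. A second RefSeq start of Prc1 had 1 CCAAT word and no CHR word. Mcm6 held 4 E2F matches and Mcm5 held 3. Over all members, 34 had a promoter in the RefSeq table, and the 250 bases before the start were searched. CCAAT stood in 27 of them (79.4%), against 37.5% of all 27025 genes of the table. An E2F word stood in 8 (23.5%) against 9.0%, and the CHR word in 8 (23.5%) against 18.3%. CHR and CCAAT words stood together in 8 members (23.5%) and in 6.5% of all genes. These shares describe letters in a window and say nothing about binding in these lungs.

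Most members were called higher in irradiated C3H/HeJ lung, and few in the other strains. In irradiated C3H/HeJ lung 24 of the 30 tested members were called higher and 0 lower, where 12.9% of all genes were called higher and 10.6% lower. In A/J, 2 of 30 were called higher and 0 lower, against 15.1% of all genes higher and 8.91% lower. In C57BL6/J limma called 0 of 30 in either direction, against 3.01% of all genes higher and 2.36% lower, and 5 of 30 had an unadjusted p under 0.05, against 20% of all genes. The median effect of the 30 members was 0.77 in C3H/HeJ, 0.20 in A/J and 0.17 in C57BL6/J, beside medians of 0.01, 0.09 and −0.01 over all genes. Irradiated C3H/HeJ arrays lay above all 3 controls in 26 of the 30 members (21.5% of all genes), irradiated A/J arrays in 9 (25.2%) and irradiated C57BL6/J arrays in 2 (11.7%).

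**Figure D1:**
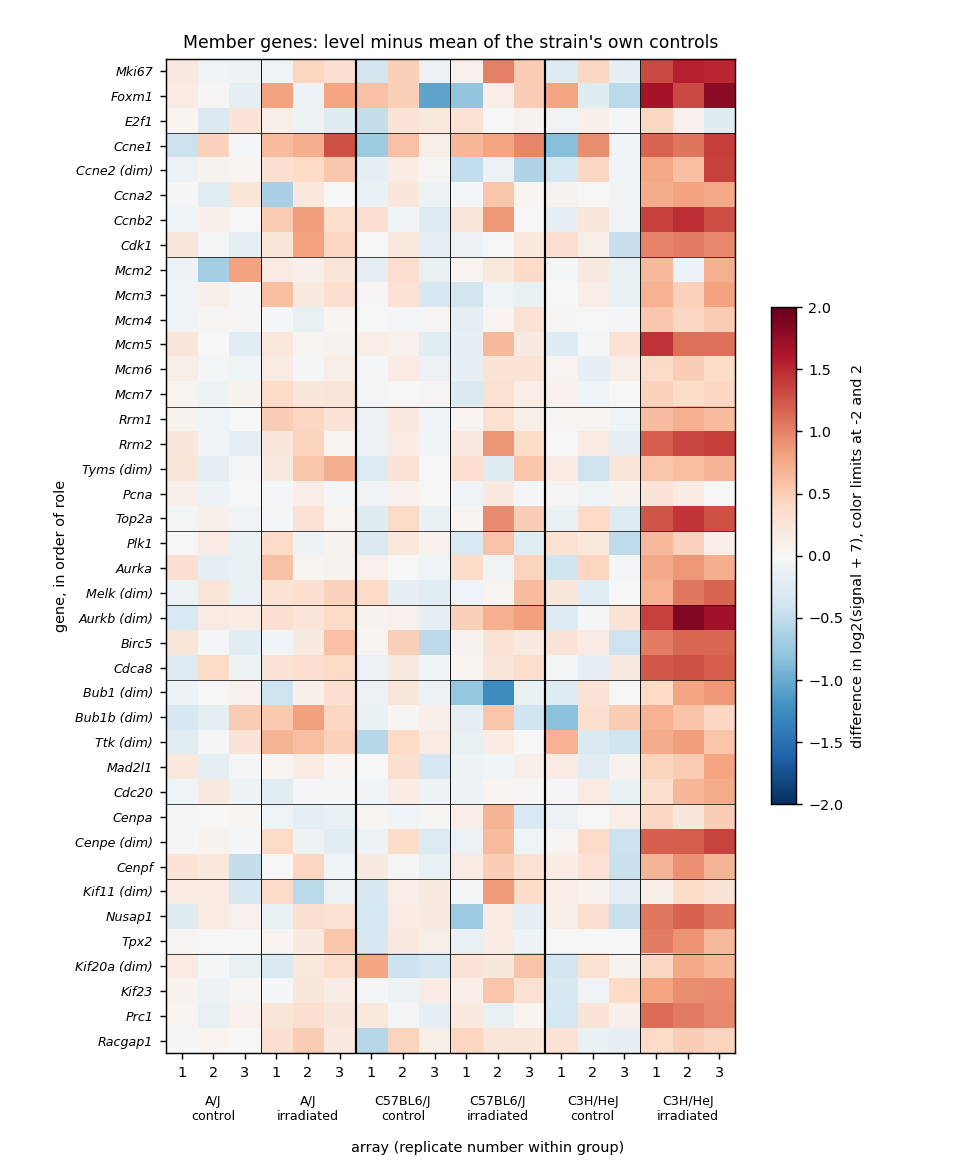
Level of each of the 40 measured members (rows, in order of role; "dim" marks the 10 below the filter) in each of 18 arrays (columns), as the difference in log2(signal + 7) from the mean of the strain's own 3 control arrays. The 3 irradiated C3H/HeJ columns are red in most rows, with means over the 30 kept members of 0.84, 0.81 and 0.82, while irradiated A/J and C57BL6/J columns are paler and mixed.

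All 3 irradiated C3H/HeJ arrays showed the shift. The mean over the 30 members lay 0.84, 0.81 and 0.82 above the control mean in arrays 1, 2 and 3, and 30, 28 and 27 members exceeded each of their controls there. Irradiated A/J arrays lay 0.17, 0.23 and 0.22 above theirs, and irradiated C57BL6/J arrays at −0.01, 0.34 and 0.19. Without C3H/HeJ irradiated array 3, 19 of the 30 members were called (9.6% of all genes), the losses being Foxm1, Ccne1, Mcm6, Mcm7 and Mad2l1, and the members' median effect was 0.79. Some members passed the filter with few arrays outside irradiated C3H/HeJ (Ccne1 and Cenpf had 1 such array above the median, Foxm1 and Aurka 2), so the count without a filter is given too. There 26 of 40 measured members were called higher in C3H/HeJ (7.74% of all genes), 1 in A/J (8.74%) and 0 in C57BL6/J (1.26%). In C57BL6/J 4 of 40 had an unadjusted p under 0.05, against 15.3% of all genes. All 40 effects in C3H/HeJ were positive for the probe set used, as were those of all 50 kept probe sets. Some probe sets below the filter were negative there, among them those of Nusap1 (−0.55), Tpx2 (−0.19 and −0.23) and Cenpa (−0.66 and −0.31). With neither the filter nor array 3 the C3H/HeJ count was 19 of 40 (5.5% of all genes).

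The members' median effect in C3H/HeJ lay above that of all genes under other scalings too. Without scaling the median effect of all genes was 0.61 in C3H/HeJ and 0.56 in A/J, and 97.8% of the called genes in C3H/HeJ were higher, against 54.8% with quantile normalization and 86.4% with median centring. In A/J that share was 94.1% and 88.5% against 62.9%. Members called in C3H/HeJ numbered 29 of 32 without scaling and 27 of 30 after median centring. Most called genes were higher under both, so these counts are not set against the 12.9% of all genes called higher with quantile normalization. The share of all genes called under both is not given here, so the counts alone show nothing particular to the members. The members' median effect lay 0.65 above that of all genes under both, against 0.76 with quantile normalization. In A/J the members' median lay 0.11 above that of all genes with quantile normalization and 0.02 below it under both other scalings, so no direction is given for the members as a group in that strain.

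**Figure D2:**
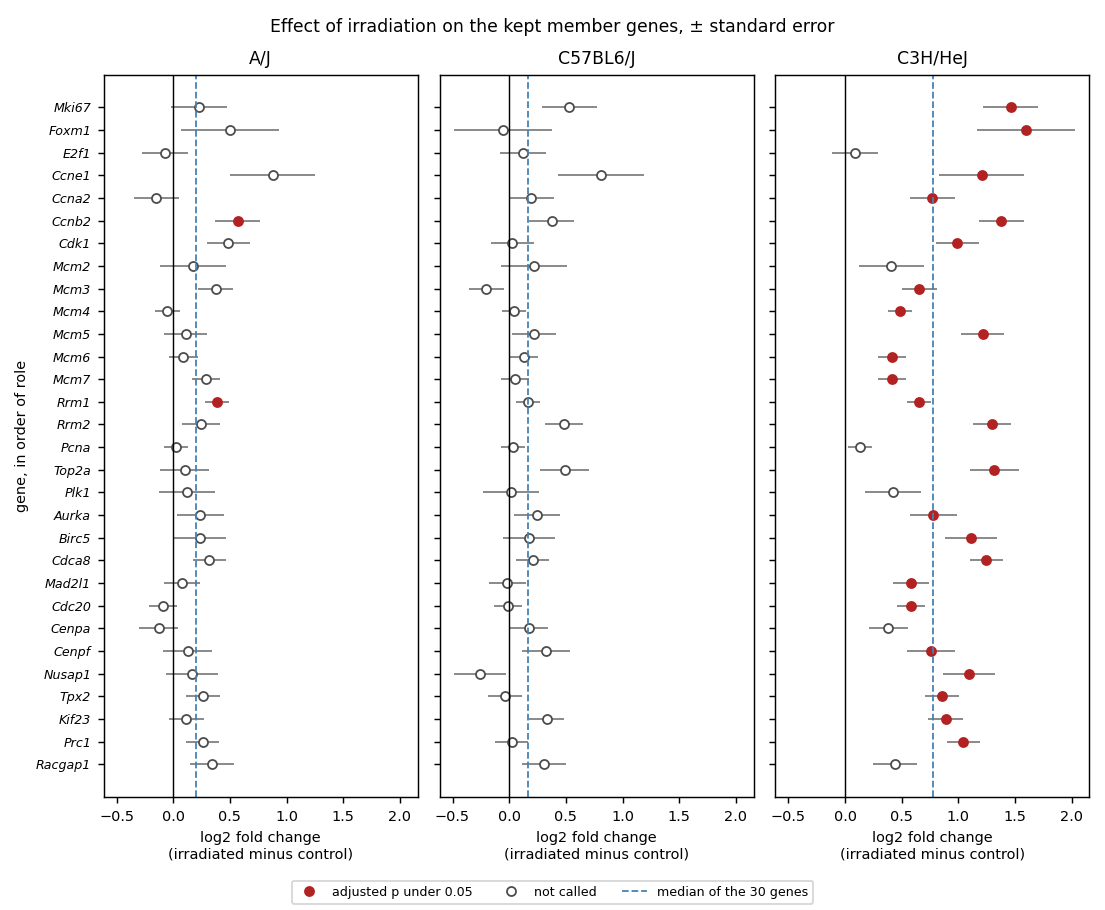
Log2 fold change of irradiated against control arrays (x axis, ± standard error) for the 30 kept members (y axis, in order of role) in each strain, from limma with 3 arrays in each group. Filled points are called at an adjusted p under 0.05, 24 in C3H/HeJ and 2 in A/J, and dashed lines mark the members' medians of 0.20, 0.17 and 0.77.

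Among the regulators of growth, Mki67 and Foxm1 rose in C3H/HeJ. Mki67 encodes the Ki-67 protein that coats mitotic chromosomes and is the usual stain for cycling cells. Mki67 levels were 5.81, 6.48 and 5.90 in untreated C3H/HeJ arrays and 7.38, 7.63 and 7.58 in irradiated ones, an increase of 1.46 ± 0.24 (2.75-fold, adjusted p = 0.000574). Mki67 levels went from 6.65, 6.40 and 6.36 to 6.40, 6.91 and 6.79 in A/J and from 5.73, 6.57 and 5.98 to 6.17, 7.09 and 6.61 in C57BL6/J. Irradiated C3H/HeJ arrays were the 3 highest of all 18, and irradiated and control arrays overlapped in the other strains (effects of 0.23 ± 0.24 in A/J and 0.53 ± 0.24 in C57BL6/J). Foxm1, the transcription factor of the mitotic program, was faint, with levels of 4.33, 3.31 and 3.00 in untreated and 5.21, 4.87 and 5.36 in irradiated C3H/HeJ arrays and an increase of 1.60 ± 0.43 (adjusted p = 0.0143), lost without array 3 (adjusted p = 0.051). Foxm1 levels went from 4.78, 4.66 and 4.45 to 5.44, 4.52 and 5.42 in A/J and from 4.70, 4.60 and 3.06 to 3.33, 4.25 and 4.61 in C57BL6/J, with overlap in both strains. E2f1, an activator of DNA synthesis genes, had levels of 5.31, 5.48 and 5.36 in untreated and 5.80, 5.47 and 5.13 in irradiated C3H/HeJ arrays, an effect of 0.09 ± 0.20 with a 95% interval from −0.34 to 0.52. E2f1 levels went from 5.80, 5.48 and 6.02 to 5.89, 5.66 and 5.52 in A/J and from 4.54, 5.28 and 5.23 to 5.32, 5.02 and 5.10 in C57BL6/J. Its irradiated and control arrays overlapped in all 3 strains.

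Cyclins and their kinase partner Cdk1 were called together in C3H/HeJ, 4 of 4 tested. Ccna2 encodes cyclin A2, which acts in DNA synthesis and early mitosis. Ccna2 levels were 5.52, 5.44 and 5.38 in untreated C3H/HeJ arrays and 6.19, 6.24 and 6.21 in irradiated ones, an increase of 0.77 ± 0.20 (adjusted p = 0.0111). Ccna2 levels went from 5.28, 5.10 and 5.55 to 4.66, 5.53 and 5.30 in A/J and from 5.25, 5.61 and 5.27 to 5.35, 5.93 and 5.43 in C57BL6/J, which overlapped with their controls. Cdk1, the kinase that starts mitosis, had levels of 5.84, 5.63 and 5.05 in untreated and 6.50, 6.53 and 6.47 in irradiated C3H/HeJ arrays and rose by 0.99 ± 0.19 (1.99-fold, adjusted p = 0.00164). Cdk1 levels went from 5.46, 5.20 and 5.04 to 5.47, 6.04 and 5.65 in A/J and from 4.99, 5.21 and 4.80 to 4.88, 4.99 and 5.22 in C57BL6/J. The irradiated A/J arrays lay above all their controls without a call (effect 0.49 ± 0.19, adjusted p = 0.0759), and Cdk1 was called there without irradiated array 1 (0.60, adjusted p = 0.0487). Ccnb2, cyclin B2, was 1 of 2 members called in A/J as well and is described beyond the rule for that reason, after its values were seen. Ccnb2 levels were 4.77, 5.17 and 4.87 in untreated C3H/HeJ arrays and 6.31, 6.42 and 6.23 in irradiated ones, and 5.01, 5.18 and 5.08 in untreated and 5.60, 5.93 and 5.45 in irradiated A/J arrays. Its increase was 1.38 ± 0.20 in C3H/HeJ (adjusted p = 0.000164) and 0.57 ± 0.20 in A/J (adjusted p = 0.0482), and without A/J irradiated array 1, whose 5' to 3' ratios were lowest, the A/J effect was 0.59 and not called (adjusted p = 0.0787). The call was lost in 18 of 33 alternatives run, with effects between 0.36 and 0.91. Ccnb2 arrays in C57BL6/J overlapped, with an effect of 0.37 ± 0.20. Ccne1, the G1 cyclin E1, rose by 1.21 ± 0.38 in C3H/HeJ (adjusted p = 0.0298), a call lost without a filter, while its effects of 0.88 ± 0.38 in A/J and 0.81 ± 0.38 in C57BL6/J were not called although irradiated arrays lay above all controls in both. Ccne2, a related cyclin gene that was dim, was called without the filter (0.92 ± 0.21, adjusted p = 0.00827).

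Of the 6 subunits of the MCM helicase, 5 rose in C3H/HeJ. Mcm7 levels were 7.97, 7.80 and 7.90 in untreated C3H/HeJ arrays and 8.34, 8.26 and 8.30 in irradiated ones, an increase of 0.41 ± 0.12 (1.33-fold, adjusted p = 0.0241). Mcm7 levels went from 8.00, 7.85 and 8.03 to 8.35, 8.19 and 8.20 in A/J and from 7.80, 7.82 and 7.84 to 7.53, 8.12 and 7.96 in C57BL6/J, and irradiated A/J arrays lay above all their controls without a call (0.29 ± 0.12). Of the 4 kept Mcm7 probe sets, only the one used was called in C3H/HeJ. Mcm6 levels were 7.39, 7.18 and 7.45 in untreated and 7.72, 7.84 and 7.71 in irradiated C3H/HeJ arrays, 0.41 ± 0.13 higher (adjusted p = 0.0273). Mcm6 levels went from 7.39, 7.26 and 7.19 to 7.45, 7.27 and 7.40 in A/J and from 7.23, 7.44 and 7.15 to 7.12, 7.55 and 7.54 in C57BL6/J, which overlapped. Mcm5 had the largest increase of the 6, at 1.22 ± 0.19 (2.32-fold), from 6.07, 6.29 and 6.61 to 7.77, 7.42 and 7.43. Mcm3 rose by 0.66 ± 0.15 and Mcm4 by 0.49 ± 0.11. For Mcm3, 2 of 4 kept probe sets were called, and a dim probe set below the filter pointed the other way (−0.92). Mcm2 was not called (0.41 ± 0.29, 95% interval from −0.21 to 1.02) with irradiated array 2 at 6.19 among the controls, while its second probe set was called (0.60).

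Nucleotide supply and the replication fork gave 3 calls of 4 tested in C3H/HeJ. Rrm1 and Rrm2 are the subunits of ribonucleotide reductase, which makes the DNA building blocks. Rrm1 levels were 6.87, 6.87 and 6.74 in untreated C3H/HeJ arrays and 7.44, 7.54 and 7.44 in irradiated ones, an increase of 0.65 ± 0.11 (adjusted p = 0.000465). Rrm1 was also the other member called in A/J, where levels went from 6.79, 6.64 and 6.74 to 7.21, 7.13 and 6.99 (0.39 ± 0.11, adjusted p = 0.0139). The second kept Rrm1 probe set was at −0.36 in A/J and not called, so the probe sets disagree there. The A/J call was lost in 4 of 33 alternatives, among them the mean of the kept probe sets, where the effect was 0.01. Rrm1 in C57BL6/J had levels of 6.50, 6.81 and 6.54 in untreated and 6.68, 6.93 and 6.74 in irradiated C57BL6/J arrays, with overlap. Rrm2 rose by 1.30 ± 0.17 in C3H/HeJ (2.46-fold, adjusted p = 6.3e-05), from 5.95, 6.12 and 5.80 to 7.15, 7.29 and 7.34. Top2a encodes topoisomerase II alpha, which untangles sister chromosomes. Top2a levels were 5.58, 6.13 and 5.46 in untreated C3H/HeJ arrays and 6.97, 7.16 and 6.99 in irradiated ones, an increase of 1.32 ± 0.22 (2.49-fold, adjusted p = 0.000503), and its second kept probe set was not called (0.61). Top2a levels went from 6.02, 6.14 and 5.96 to 6.02, 6.33 and 6.07 in A/J and from 5.20, 5.83 and 5.31 to 5.48, 6.39 and 5.93 in C57BL6/J, with overlap in both. Pcna, the clamp that holds DNA polymerase and that also serves DNA repair, was not called. Its levels were 9.91, 9.80 and 9.96 in untreated and 10.15, 10.04 and 9.89 in irradiated C3H/HeJ arrays (0.13 ± 0.11, 95% interval from −0.09 to 0.36). Pcna levels went from 9.79, 9.59 and 9.70 to 9.67, 9.83 and 9.66 in A/J and from 9.61, 9.76 and 9.67 to 9.61, 9.88 and 9.65 in C57BL6/J, and all groups of a strain overlapped. Tyms, thymidylate synthase, was dim and not called in any strain (0.61 ± 0.22, adjusted p = 0.0887 in C3H/HeJ).

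**Figure D3:**
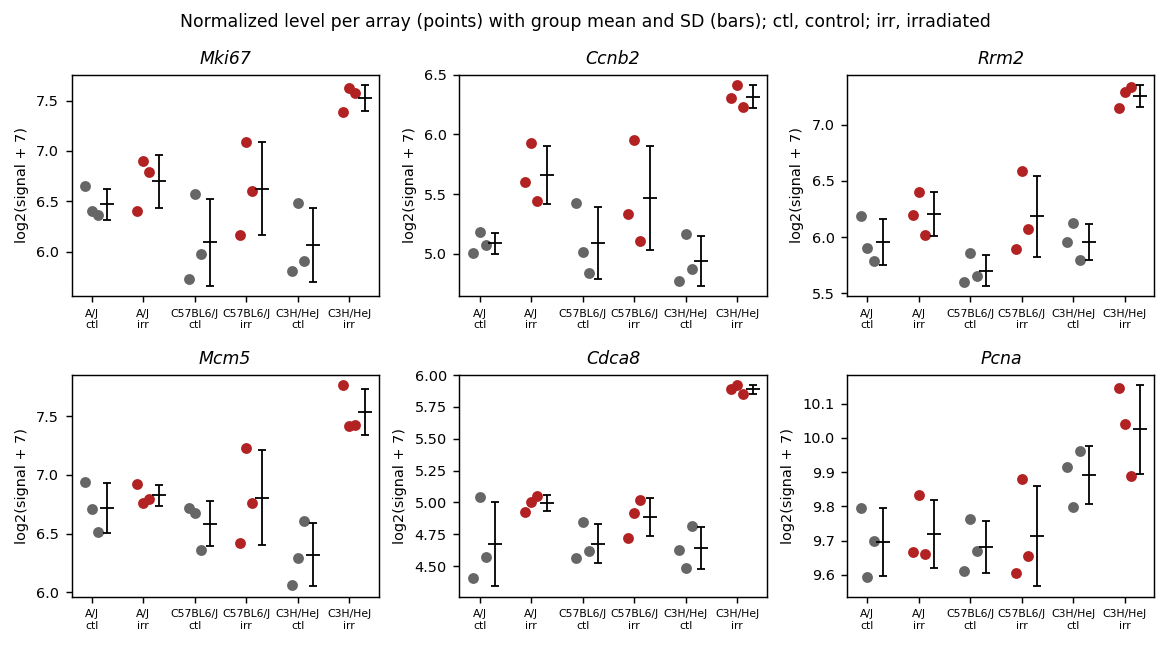
Normalized log2(signal + 7) level of 6 members in each array (points; gray, control; red, irradiated) with the group mean and SD (bars), 3 arrays in each group. Irradiated C3H/HeJ arrays stand above every other array for Mki67, Ccnb2, Rrm2, Mcm5 and Cdca8, and the groups overlap for Pcna.

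Mitotic kinases and the chromosomal passenger complex act on the forming spindle. Aurka, the centrosome kinase Aurora A, had levels of 4.25, 5.07 and 4.62 in untreated and 5.40, 5.51 and 5.37 in irradiated C3H/HeJ arrays and rose by 0.78 ± 0.20 (adjusted p = 0.0121). Aurka levels went from 4.94, 4.43 and 4.45 to 5.19, 4.67 and 4.67 in A/J and from 4.53, 4.46 and 4.37 to 4.81, 4.38 and 4.90 in C57BL6/J, and these overlapped. Plk1, which drives centrosome maturation and mitotic entry, was not called, with levels of 5.12, 5.01 and 4.29 in untreated and 5.46, 5.27 and 4.95 in irradiated C3H/HeJ arrays (0.42 ± 0.25, 95% interval from −0.10 to 0.94). Plk1 levels went from 4.66, 4.82 and 4.54 to 5.06, 4.58 and 4.75 in A/J and from 4.33, 4.83 and 4.69 to 4.30, 5.18 and 4.40 in C57BL6/J. Plk1 groups overlapped in every strain. Melk, a dim kinase, was called without the filter (0.97 ± 0.21, adjusted p = 0.00606). In the passenger complex, Birc5 (survivin) and Cdca8 (borealin) hold Aurora B at the centromere. Birc5 levels were 5.48, 5.40 and 4.82 in untreated C3H/HeJ arrays and 6.26, 6.38 and 6.39 in irradiated ones, an increase of 1.11 ± 0.23 (adjusted p = 0.00254). Birc5 levels went from 5.42, 5.15 and 4.98 to 5.13, 5.37 and 5.76 in A/J and from 5.15, 5.58 and 4.59 to 5.18, 5.38 and 5.29 in C57BL6/J, with overlap. Cdca8 had levels of 4.63, 4.49 and 4.82 in untreated and 5.89, 5.92 and 5.85 in irradiated C3H/HeJ arrays, a narrow irradiated group well above its controls, and an increase of 1.25 ± 0.15 (2.37-fold, adjusted p = 3.13e-05). Cdca8 levels went from 4.40, 5.05 and 4.57 to 4.93, 5.00 and 5.05 in A/J and from 4.56, 4.85 and 4.62 to 4.72, 4.91 and 5.02 in C57BL6/J, where 1 or more controls reached the irradiated range. The kinase gene Aurkb lay below the filter and had the highest effect of all 40 members in C3H/HeJ without it (1.63 ± 0.17, adjusted p = 3.15e-05), with 3.29, 3.52 and 3.82 in untreated and 4.91, 5.39 and 5.22 in irradiated C3H/HeJ arrays.

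Genes of the spindle checkpoint and the kinetochore, where chromosomes meet the spindle, rose in 3 of 4 tested cases in C3H/HeJ. Cdc20 activates the complex that ends mitosis, and Mad2l1 restrains it until chromosomes are attached. Cdc20 levels were 6.58, 6.76 and 6.47 in untreated C3H/HeJ arrays and 6.95, 7.26 and 7.35 in irradiated ones, an increase of 0.58 ± 0.12 (adjusted p = 0.00325). Cdc20 levels went from 6.60, 6.86 and 6.58 to 6.47, 6.64 and 6.66 in A/J and from 6.30, 6.49 and 6.25 to 6.25, 6.39 and 6.37 in C57BL6/J, with overlap. Mad2l1 had levels of 6.13, 5.73 and 6.03 in untreated and 6.41, 6.47 and 6.76 in irradiated C3H/HeJ arrays and rose by 0.58 ± 0.16 (adjusted p = 0.0154), a call lost without array 3 (0.073). Mad2l1 levels went from 6.33, 5.94 and 6.08 to 6.15, 6.26 and 6.16 in A/J and from 6.29, 6.61 and 5.95 to 6.19, 6.23 and 6.39 in C57BL6/J, and these overlapped. Bub1, Bub1b and Ttk, the checkpoint kinases and their partner, were dim and not called in any strain (effects in C3H/HeJ of 0.68 ± 0.25, 0.56 ± 0.31 and 0.71 ± 0.27). Cenpa, the histone variant that marks the centromere, was not called in C3H/HeJ although irradiated arrays (6.04, 5.85 and 6.11) lay above all controls (5.50, 5.60 and 5.75), with an effect of 0.38 ± 0.17 (95% interval from 0.02 to 0.75). Cenpa levels went from 5.50, 5.52 and 5.54 to 5.45, 5.33 and 5.39 in A/J and from 5.30, 5.22 and 5.29 to 5.40, 5.95 and 4.97 in C57BL6/J. Irradiated A/J arrays lay below all controls for Cenpa without a call (−0.13 ± 0.17, adjusted p = 0.623). Cenpf, a kinetochore protein of late interphase, had levels of 4.57, 4.71 and 3.96 in untreated and 5.10, 5.33 and 5.09 in irradiated C3H/HeJ arrays and rose by 0.76 ± 0.21 (adjusted p = 0.0177). Cenpf levels went from 4.89, 4.83 and 4.14 to 4.63, 5.05 and 4.56 in A/J and from 4.39, 4.17 and 4.06 to 4.38, 4.71 and 4.51 in C57BL6/J, with overlap. Cenpe, the dim kinetochore motor, was called without the filter (1.26 ± 0.24, adjusted p = 0.00254).

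Spindle assembly and cytokinesis genes rose in 4 of 5 tested cases in C3H/HeJ. Nusap1 binds and bundles spindle microtubules, and Tpx2 starts their growth around chromosomes. Nusap1 levels were 5.38, 5.59 and 4.82 in untreated C3H/HeJ arrays and 6.31, 6.45 and 6.32 in irradiated ones, an increase of 1.10 ± 0.23 (adjusted p = 0.003). Nusap1 levels went from 5.44, 5.85 and 5.78 to 5.55, 6.01 and 6.0 in A/J and from 5.10, 5.61 and 5.62 to 4.72, 5.59 and 5.24 in C57BL6/J, with overlap. Tpx2 had levels of 4.82, 4.80 and 4.80 in untreated and 5.84, 5.71 and 5.46 in irradiated C3H/HeJ arrays and rose by 0.86 ± 0.15 (adjusted p = 0.00079). Tpx2 levels went from 4.72, 4.70 and 4.69 to 4.75, 4.91 and 5.26 in A/J and from 4.53, 5.04 and 4.96 to 4.70, 4.99 and 4.73 in C57BL6/J, with irradiated A/J arrays above their controls and no call (0.27 ± 0.15). The spindle motor gene Kif11 was dim, with overlapping groups in all strains (0.25 ± 0.24 in C3H/HeJ). For cytokinesis, Kif23 and Racgap1 form the centralspindlin complex and Prc1 crosslinks the midzone. Kif23 levels were 4.41, 4.67 and 5.13 in untreated C3H/HeJ arrays and 5.52, 5.67 and 5.69 in irradiated ones, an increase of 0.89 ± 0.16 (adjusted p = 0.000815). Kif23 levels went from 5.02, 4.85 and 4.98 to 4.92, 5.17 and 5.10 in A/J and from 5.34, 5.28 and 5.53 to 5.53, 5.94 and 5.68 in C57BL6/J, with overlap. Racgap1 was not called with the probe set used, which gave levels of 5.77, 5.34 and 5.32 in untreated and 5.86, 5.98 and 5.92 in irradiated C3H/HeJ arrays (0.44 ± 0.19, adjusted p = 0.11), while its second, dimmer probe set rose by 1.33 (adjusted p = 0.000336 over all kept probe sets), so the probe sets disagree. Racgap1 levels went from 5.28, 5.34 and 5.31 to 5.63, 5.82 and 5.50 in A/J and from 4.47, 5.49 and 5.16 to 5.48, 5.28 and 5.29 in C57BL6/J. The irradiated A/J arrays lay above all their controls, and C57BL6/J arrays overlapped. Prc1 rose by 1.04 ± 0.15 (adjusted p = 0.000128), and the motor gene Kif20a was dim and not called (0.62 ± 0.28). Over all 50 kept member probe sets, 37 were called higher in C3H/HeJ, where 9.66% of all probe sets were.

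Few members were called by the test of the difference between strains, although most differences from C3H/HeJ had the same sign. The C3H/HeJ effect was greater than that in C57BL6/J for 29 of 30 members (median difference 0.58, beside 0.03 over all genes). Of these 30, 18 had an unadjusted p under 0.05, against 16.3% of all genes. It was greater than that in A/J for 30 of 30 (median 0.57, beside −0.06), with 15 under 0.05 unadjusted, against 17.9% of all genes. The effect in C3H/HeJ was called greater than that in C57BL6/J for 4 of 30 members (1.02% of all genes): Cdca8 by 1.04 ± 0.21 (adjusted p = 0.0207), Nusap1 by 1.35 ± 0.33 (0.0493), Tpx2 by 0.90 ± 0.21 (0.0477) and Prc1 by 1.02 ± 0.21 (0.0236). It was called greater than that in A/J for 2 (0.556% of all genes), Rrm2 by 1.05 ± 0.23 (0.0446) and Cdca8 by 0.93 ± 0.21 (0.0437). Prc1 levels were 4.40, 5.02 and 4.85 and 5.87, 5.80 and 5.72 in untreated and irradiated C3H/HeJ arrays and 4.94, 4.69 and 4.56 and 4.92, 4.58 and 4.77 in C57BL6/J. Rrm2 levels in A/J were 6.19, 5.90 and 5.79 and 6.19, 6.40 and 6.02. Between A/J and C57BL6/J limma called 0 of 30 differences of effects (2.93% of all genes higher and 2.45% lower), and 1 had an unadjusted p under 0.05, against 21.1% of all genes. For Mki67 the C3H/HeJ effect lay above that of A/J by 1.23 ± 0.35 (95% interval from 0.50 to 1.97, adjusted p = 0.0865), which was not called. These counts moved with single arrays: without C3H/HeJ irradiated array 1, 2 or 3 the count against C57BL6/J was 1, 0 or 3 and that against A/J was 0 in each case, and without the 3 arrays high in squamous genes both were 0.

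Between untreated strains 1 of 30 members was called in each of 2 comparisons, a share below that of all genes in the same direction. E2f1 was higher in untreated A/J (5.80, 5.48 and 6.02) than in untreated C57BL6/J (4.54, 5.28 and 5.23) by 0.75 ± 0.20 (adjusted p = 0.0261, where 4.5% of all genes were called higher). Kif23 was lower in untreated C3H/HeJ (4.41, 4.67 and 5.13) than in C57BL6/J (5.34, 5.28 and 5.53), at −0.65 ± 0.16 (adjusted p = 0.0132, where 6% of all genes were called lower). Between untreated C3H/HeJ and A/J limma called 0 of 30 (4.49% of all genes), and 2 had an unadjusted p under 0.05, against 17.7% of all genes. Without the 3 arrays high in squamous genes, 2 of which are C57BL6/J controls, neither was called. Both calls were also lost without scaling and with only the groups compared, that of E2f1 without A/J control array 1 or 3 or C57BL6/J control array 1, and that of Kif23 without C57BL6/J control array 3 or C3H/HeJ control array 1.

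Several C57BL6/J effects were smaller without those control arrays. Without the 3 arrays high in squamous genes the members' median effect there went from 0.17 to −0.03, with 1 control array left and assumed to vary like the other groups. Mki67 went from 0.53 ± 0.24 to 0.05 ± 0.33, Top2a from 0.49 ± 0.22 to 0.11 ± 0.30 and Rrm2 from 0.48 ± 0.17 to 0.33 ± 0.24.

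Other genes of the same processes were listed beside the members. Of 40 other mitosis genes tested, 25 were called higher and 1 lower in C3H/HeJ, 3 and 2 in A/J, and 2 and 0 in C57BL6/J, with medians of 0.78, 0.20 and 0.18. The highest calls in C3H/HeJ were the spindle protein gene Ckap2 (1.29 ± 0.28) and the centromere gene Cenpk (1.25 ± 0.18), and the lowest were Ckap2l (0.58 ± 0.17) and the microtubule destabilizer Stmn1 (−0.91 ± 0.22), whose call was lost without scaling and after median centring. Stmn1 was also lower in A/J (−1.26 ± 0.22, not called without scaling), where Nek2 (0.86 ± 0.23) and Cenpt (0.71 ± 0.23) led and Fbxo5 was called lower (−0.50 ± 0.17). In C57BL6/J the calls were Ckap2 (1.01 ± 0.28) and Ncapg2 (0.58 ± 0.16), and both were lost without scaling. Of the 58 other mitosis genes measured, 39 to 43 lay above the table's median on irradiated C3H/HeJ arrays and 19 to 27 on their controls. The filter thus favored genes high in that group, so counts without it are given too. There 28 of 58 were called higher and 1 lower in C3H/HeJ, 2 and 1 in A/J, and 1 and 0 in C57BL6/J. All genes then had 7.74%, 8.74% and 1.26% called higher. Of 38 other replication genes, 15 were called higher in C3H/HeJ, 6 in A/J and 1 in C57BL6/J, and 0 lower, with medians of 0.41, 0.15 and 0.03. The shares called higher over all genes were 12.9%, 15.1% and 3.01%, so the A/J and C57BL6/J counts are near the background. Pole, the leading strand polymerase (1.69 ± 0.28), and Dck, a nucleoside kinase (1.60 ± 0.32), led in C3H/HeJ, and the lowest calls were Rfc4 (0.61 ± 0.10) and Mcm10 (0.62 ± 0.19). In A/J, Gins2 (1.27 ± 0.34) and Uhrf1 (1.11 ± 0.25) led, with Cdt1 (0.42 ± 0.14) and Prim2 (0.61 ± 0.15) lowest, and in C57BL6/J Chaf1b (0.71 ± 0.20) was called, which was lost without scaling. Without C3H/HeJ irradiated array 3 the C3H/HeJ counts were 23 of 40 and 13 of 38. Relative to all genes, the medians of both lists in A/J turned from above to below 0 without scaling and after median centring.

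Genes that act before DNA synthesis were called in all 3 strains. Of 13 G1 cyclins, kinases and activators, 7 were called higher in C3H/HeJ, 6 in A/J and 2 in C57BL6/J, and 0 lower, with medians of 0.50, 0.47 and 0.16. Ccnd1, the growth-factor-responsive cyclin D1, rose by 1.56 ± 0.16 in C3H/HeJ, 1.02 ± 0.16 in A/J and 0.78 ± 0.16 in C57BL6/J. The related cyclin gene Ccnd2 rose by 0.68 ± 0.16, 0.62 ± 0.16 and 0.81 ± 0.16. The C57BL6/J calls of both were lost without scaling and without the 3 arrays high in squamous genes. Myc rose by 1.50 ± 0.19 in C3H/HeJ and 1.18 ± 0.19 in A/J, and the lowest calls were Tfdp1 (0.50 ± 0.14) and Cdk2 (0.57 ± 0.18) in C3H/HeJ and Tfdp1 (0.55 ± 0.14) in A/J. Of 20 Cdk inhibitors and arrest genes, 3 were called higher and 3 lower in C3H/HeJ, 3 and 5 in A/J, and 4 and 1 in C57BL6/J. All genes had 12.9% higher and 10.6% lower, 15.1% and 8.91%, and 3.01% and 2.36%. Without scaling the counts were 5 and 0 in C3H/HeJ, 3 and 0 in A/J and 1 and 0 in C57BL6/J, and after median centring 5 and 1, 4 and 1, and 2 and 0. Relative to all genes the list's median was −0.11, −0.32 and 0.17, and −0.09, −0.23 and 0.18 without scaling. Cdkn1a, the p53 target p21 that blocks cyclin-dependent kinases, rose by 2.29 ± 0.28 in C3H/HeJ, 1.77 ± 0.28 in A/J and 2.57 ± 0.28 in C57BL6/J, with adjusted p-values of 4.27e-05, 0.000343 and 0.000107. The difference of its effect between C3H/HeJ and C57BL6/J was −0.28 ± 0.39 (adjusted p = 0.782). Ccng1, another p53 target, rose by 1.08 ± 0.11, 0.63 ± 0.11 and 0.73 ± 0.11. The inhibitor gene Cdkn2c was at −0.96 ± 0.12, −0.40 ± 0.12 and −0.44 ± 0.12 and called in all 3 strains, calls that were lost in every strain without scaling, where its A/J effect of 0.18 still lay below the median of 0.56 over all genes. Other extremes were Gas1 (−0.90 ± 0.26) in C3H/HeJ, Cdkn1b (−1.18 ± 0.21) and Gadd45b (−0.72 ± 0.16) in A/J, and Gadd45a (0.50 ± 0.12) in C57BL6/J.

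**Figure D4:**
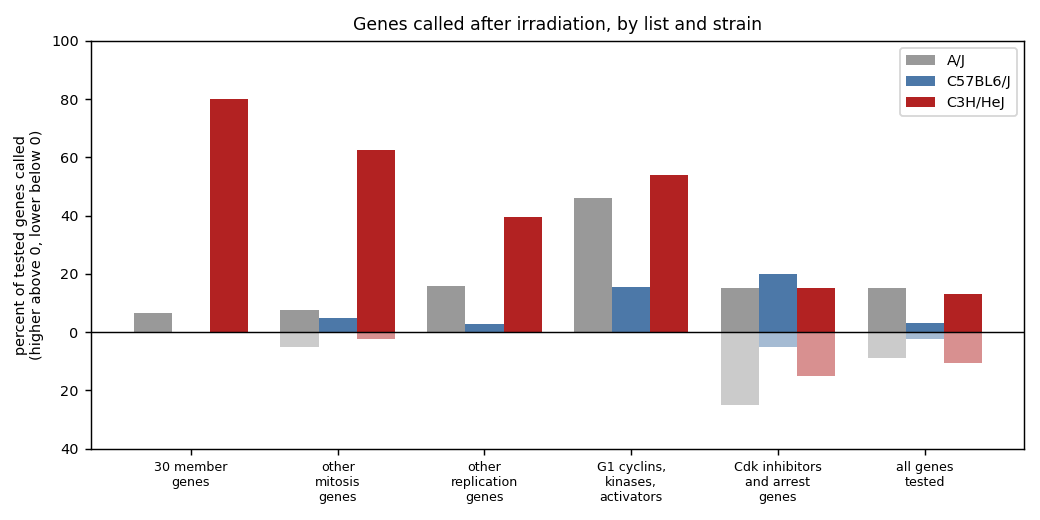
Percent of tested genes called higher (above 0) or lower (paler bars below 0) after irradiation in each strain, for the 30 members, 4 lists of related genes and all 12405 genes tested. In C3H/HeJ 24 of 30 members and 25 of 40 other mitosis genes were called higher against 12.9% of all genes, and A/J and C57BL6/J bars for members are at 2 and 0 of 30. Without the filter (not drawn) the C3H/HeJ counts were 26 of 40 members and 28 of 58 other mitosis genes, against 7.74% of all genes.

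Markers of some cell types moved in C3H/HeJ as well. Over all genes, 12.9% were called higher and 10.6% lower in C3H/HeJ, and 15.1% and 8.91% in A/J. Of 12 macrophage markers 8 were called higher and 1 lower in C3H/HeJ. Their summed signal ran from 7376 to 8194 in C3H/HeJ controls and from 11340 to 13170 in irradiated arrays. A/J had 7 higher and 1 lower (6479 to 6485, and 7530 to 12470). Mast cell markers were called higher in 7 of 9 cases and lower in 1 in both strains (667.9 to 709.7 and 939.7 to 1709 in C3H/HeJ, 960.2 to 1083 and 1807 to 2831 in A/J). Neutrophil markers summed to 1465 to 2068 in untreated and 2733 to 3183 in irradiated C3H/HeJ arrays, with 1 of 7 called higher. The count was 6 of 6 without scaling and 3 of 7 after median centring, where most called genes were higher. Of 12 endothelial markers 8 were called lower, against 1 lower and 1 higher without scaling and 5 lower and 1 higher after median centring, and relative to all genes their median was −0.73, −0.61 and −0.62. Fibroblast markers gave 3 higher and 1 lower of 12 in C3H/HeJ, and lung epithelial markers 0 higher and 2 lower of 12. Counts there were 1 and 2 of 10 for T and NK cells, 1 and 1 of 9 for B and plasma cells, and 0 and 0 of 3 for erythroid precursors. The part of these cells in the members' increase was not tested. For thymus, a neighboring organ rich in dividing cells, the 4 tested markers were Cd8b1, Cd1d1, Cd3e and Themis, and Cd3e is also on the T cell list. Their median effect relative to all genes in C3H/HeJ was 0.13, and −0.08 without scaling and −0.08 after median centring, where 1 of the 4 was called higher. The summed signal over 9 thymus genes was 172.6 to 187.9 in controls and 174.9 to 201.5 in irradiated arrays. The defining genes Rag1, Rag2, Dntt and Ptcra lay below the table's median on all 18 arrays and were left out by the filter. Whether thymus contributed to any array was not tested.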

How the data were processed

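Right lung RNA from 18 samples (6 groups of 3) had been hybridized to 1-color expression arrays. The labels do not say that the arrays of a group come from separate animals, and p-values then measure only the spread between these samples, which may be technical. The deposited values are probe set signal intensities on a linear scale, made with MAS5 per the submitters' processing notes; the scaling target and version are not given in the sources used here. The values were turned into log2(signal + 7), 7 being the rounded 25th percentile (6.7), and quantile-normalized. Probe sets with fewer than 3 of 18 arrays over the median of the whole table (4.979) were left out, and a gene was represented by its kept probe set of highest mean. Of 45101 probe sets, 34958 name 1 gene, 932 name several and 9211 have no entry in the platform annotation. In R 4.3.3, limma 3.58.1 estimated 6 group means (12 residual degrees of freedom), with Benjamini-Hochberg adjustment over 12405 genes, for 9 comparisons, and was first tested on simulated data. Intervals are at 95%. Strains share no arrays, but differences of effects against C3H/HeJ share the C3H/HeJ arrays. Per-array values are given for the 2 members of highest mean in each role, and for members described as singled out after their values were seen (Ccnb2, Mcm5, Rrm2, Prc1, Aurkb, and Foxm1 and Top2a with their roles). From related lists the 2 highest and 2 lowest calls are named. The members and lists were chosen with earlier results of these data known. Same-numbered arrays did not deviate together (correlations of −0.084 to 0.095), so replicate numbers were not taken as pairs. The alternatives changed scaling, pseudocount, filter, probe set choice, samples, variance model and replicate block. A filter on the mean over all arrays, the removal of both arrays standing apart, and the removal of filter and array 3 together were chosen after seeing the data.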

Additional observations from a re-analysis of the deposited data

Results flagged for a closer look

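The effects of irradiation on 5 members differed between strains by the interaction test of limma. Cdca8 exceeded its C57BL6/J effect in C3H/HeJ by 1.04 (adjusted p = 0.0207) and its A/J effect by 0.93 (adjusted p = 0.0437). Nusap1 exceeded its C57BL6/J effect by 1.35 (adjusted p = 0.0493), Tpx2 by 0.90 (adjusted p = 0.0477) and Prc1 by 1.02 (adjusted p = 0.0236). Rrm2 exceeded its A/J effect by 1.05 (adjusted p = 0.0446). These calls were not stable. Both differences against A/J lost the call when any 1 irradiated C3H/HeJ array was left out, and all 4 against C57BL6/J lost it without array 2. Over all alternatives in which they were tested, the calls against C57BL6/J were lost in 6 of 31 for Cdca8, 21 of 33 for Nusap1, 23 of 31 for Tpx2 and 10 of 32 for Prc1, and those against A/J in 21 of 33 for Rrm2 and 22 of 31 for Cdca8, while no difference changed sign. Time since exposure differs between these strains as well, and strain and time cannot be told apart.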

How the results depend on the processing

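Leaving out each of the 18 arrays in turn gave 19 to 25 members called higher in C3H/HeJ, 1 to 3 in A/J and 0 to 0 in C57BL6/J. The count of greater effects ranged from 0 to 5 for C3H/HeJ against C57BL6/J, from 0 to 5 for C3H/HeJ against A/J, and from 0 to 0 for A/J against C57BL6/J. Members higher in untreated A/J than in C57BL6/J numbered 0 to 2, those higher in untreated C3H/HeJ than in C57BL6/J 0 to 1, and those higher in untreated C3H/HeJ than in A/J 0 to 0. The reported call between untreated C3H/HeJ and C57BL6/J is 1 lower member, and the 1 higher member appeared only without C57BL6/J control array 2 or C3H/HeJ control array 3. The C3H/HeJ count of 24 became 17 with a filter of at least 9 arrays above the median and 18 with the mean filter. Those filters left out the members that lost their calls. The count was 20 without both arrays standing apart, 26 without filter, 27 with median centring and 29 without scaling. The A/J count of 2 became 7 with median centring, where most called genes of that strain were higher. It became 1 with a pseudocount of 1 or 32, no filter, the mean of kept probe sets or only the groups compared. It was also 1 with a variance trend or with neither filter nor C3H/HeJ irradiated array 3, and 0 without both arrays standing apart. The C3H/HeJ against C57BL6/J count of 4 became 9 with median centring, 8 with a pseudocount of 32, 2 without scaling, with a pseudocount of 1, no filter, adjustment over all probe sets, a variance trend or the mean filter, 1 with the 9-array filter or only the groups compared, and 0 without the arrays high in squamous genes or without filter and array 3. The C3H/HeJ against A/J count of 2 became 5 with the mean of probe sets, 4 with a pseudocount of 32, 1 without filter, and 0 without scaling, with median centring, with a pseudocount of 1, without the squamous arrays, without both arrays standing apart, or without filter and array 3. The untreated A/J against C57BL6/J count of 1 became 2 with the mean of probe sets and 0 without scaling, with only the groups compared or without the squamous arrays. The causes were not tested.

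With the replicate block, which the pairing check does not call for, the counts were 24 in C3H/HeJ, 3 in A/J, 0 in C57BL6/J, 4 against A/J, 3 against C57BL6/J and 2 for untreated A/J against C57BL6/J. Signal near background limits the 10 dim members, and 3 arrays in each group limit the precision of every effect. Low signal also limits kept members whose mean over all arrays lay below the table's median of 4.979. These were Ccne1 (4.42), Foxm1 (4.44), Cenpf (4.62), Aurka (4.78), Plk1 (4.79), Cdca8 (4.96) and Tpx2 (4.97), and all but Plk1 were called in C3H/HeJ.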
